A study of Mus musculus with 2 samples.

Results

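The 9 genes described here encode amino acid transporters of the plasma membrane: Slc1a3, Slc1a4, Slc1a5, Slc3a2, Slc7a1, Slc7a5, Slc7a11, Slc38a1 and Slc38a2. They were found by symbol among the 33696 genes of the count matrix, and all 9 were present, each with 1 row. They were read in A and B cells, the main expression groups of a single library of mouse pancreatic cancer cells. Each group was defined by its own marker genes. A cells had at least 2 UMIs (unique molecular identifiers, each a counted RNA molecule) of Pde10a, Plcb1, Galnt18, Arhgap15 and Ceacam1 together, and at least 3 times as many of these as of the B genes. B cells met the mirrored rule with S100a7a, Rgs20, Hs6st2, Ccbe1, Ctse and Mal.

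The cells were of the pancreatic ductal adenocarcinoma line KPCY 6419c5, an established mouse tumour line. All of them carried BASELINE, a lineage-tracing system, and had been given an adenine base editor built on Cas12a, so no unedited cells were compared. Clones 76 and 84, each grown from 1 sorted cell, were mixed in equal numbers after 19 days of editing and loaded on a droplet instrument as 1 library. The series also lists cells of clones 1, 32, 33, 52 and 76, which are not analysed here. A and B cells are expression groups and were not assigned to clones. With 1 library there is no replicate of either group, so no p-value was computed.

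Cells take up amino acids through families of solute carriers that differ in what they carry and in what drives them. Carriers of the SLC1 family use the sodium gradient to take up glutamate and aspartate or to exchange small neutral amino acids. Several SLC7 proteins are light chains that reach the membrane only when joined to the heavy chain encoded by Slc3a2. SLC38 carriers take up small neutral amino acids, glutamine among them, with sodium. Pancreatic tumours are known for a high demand for glutamine and cystine. Several of these genes are known targets of ATF4, the transcription factor of the amino acid shortage response, and Slc7a11 is also a target of NRF2, the factor of the oxidative stress response.

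The library held 22178 barcodes and 116505698 UMIs. Barcodes were kept from 2000 UMIs and 1000 genes upward when no more than 15% of UMIs were mitochondrial, which left 21361. The rule placed 7816 (36.6%, exact 95% interval 35.9 to 37.2%) among A cells and 8936 (41.8%, 41.2 to 42.5%) among B cells, and left 4609 in neither group. The median was 4700 UMIs per A cell and 5440 per B cell. The median mitochondrial share was 3.19% in A cells and 1.89% in B cells. Levels are given as CPM, the UMIs of a gene per 1000000 UMIs of the group. The 8 epithelial markers were all detected, with a summed 2739 CPM in A cells and 7584 CPM in B cells. Keratins made up most of these sums, and Epcam went the other way, with 31.8 and 3.17 CPM. Of 7 immune markers the sum was 3.45 and 0.948 CPM, with Tyrobp at 0. The 8 fibroblast markers summed to 146 and 6.82 CPM, of which Acta2 alone gave 144 and 5.89, and Col1a2, Dcn and Lum were at 0. The 6 endothelial markers summed to 42.1 and 8.94 CPM, led by Egfl7, with Kdr at 0. The 5 acinar markers summed to 13.66 and 4.396 CPM, with Cela1 at 3.65 and 0.1705 CPM and with Cpa1 and Ptf1a at 0. Endocrine markers had 3 and 4 UMIs, and 4 erythroid markers summed to 0.497 and 3.30 CPM. Whether these differences in depth, mitochondrial share and markers have a part in the transporter differences below was not tested, except where a matched value is given.

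With a minimum of 10 CPM in either group, which all 9 transporters passed, 4 differed at least 2-fold between A and B cells. Slc1a3 and Slc7a11 were higher in A cells, as were 10.3% of all features, whereas Slc7a1 and Slc38a1 were higher in B cells, as were 7.26%. With a minimum of 50 CPM, which 4 of the 9 passed, 1 was called in each direction, Slc1a3 in A cells (7.6% of features) and Slc7a1 in B cells (6.68%). Summed over the 9 genes, the level was 581 CPM (95% Poisson interval 574 to 589) in A cells and 503 CPM (497 to 509) in B cells. The makeup of this sum differed more than its size. Slc1a3 gave 25.2% of the transporter UMIs in A cells and 0.7465% in B cells, and Slc7a1 gave 7.72% and 21.2%. All intervals in the text are at 95% and reflect counting error alone. How far cultures of the same cells would differ is unknown.

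**Figure D1:**
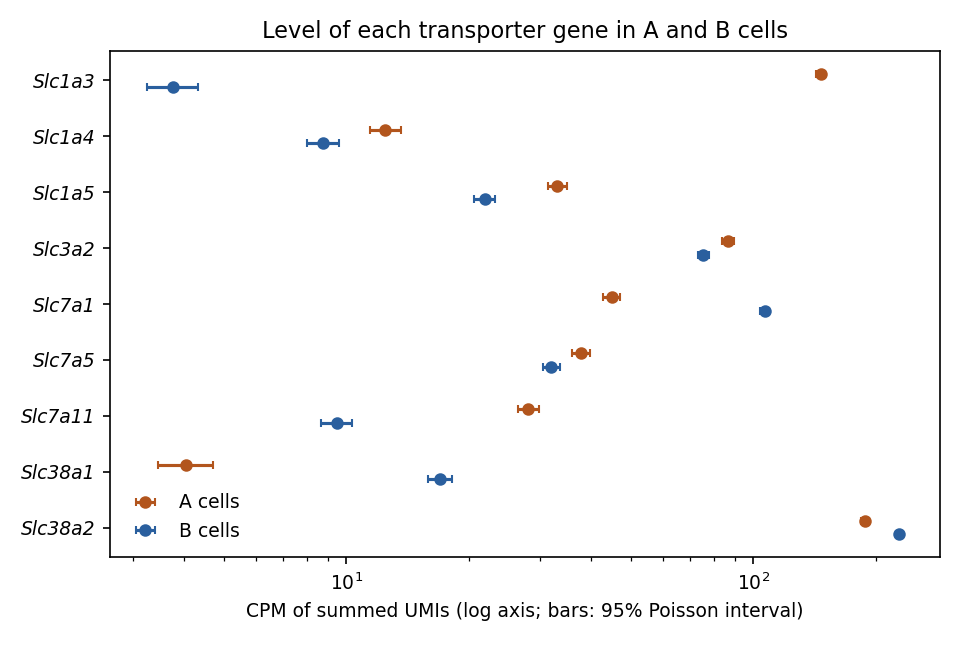
Level of the 9 transporter genes in A cells (brown) and B cells (blue), as CPM of summed UMIs on a log axis with 95% Poisson intervals. Slc1a3 is furthest apart, at 146.5 CPM in A cells and 3.75 CPM in B cells, and the intervals of A and B cells do not overlap for any of the 9 genes.

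Slc1a3 (ENSMUSG00000005360) encodes a sodium-driven carrier of glutamate and aspartate, best known from glial cells. It had 5898 UMIs in A cells, or 146.5 CPM (143 to 150), and 198 UMIs in B cells, or 3.75 CPM (3.25 to 4.31). It was 39.0-fold higher in A cells (33.9 to 45.2), a log2 ratio of 5.29. After each cell was thinned to 3000 UMIs, 33.6% of A cells and 0.748% of B cells had a Slc1a3 UMI. Without thinning these shares were 47.5% and 1.75%.

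The level in B cells was low beside that of other genes of A cells. Of 1815 features outside the marker rule with at least 100 CPM in A cells, Slc1a3 had the 2nd smallest B level relative to A, at 2.56% of it. The smallest was 2.39%, of Gm5886. These features were taken by their A level alone, so the rank only describes and depends on that cut. Among the 8800 features with at least 10 CPM in either group, marker genes included, Slc1a3 ranked 23 from the A side by A over B ratio. In 383 B cells with 1 or more UMIs of the A marker genes, Slc1a3 was at 33.5 CPM (27.3 to 40.7), and these cells held 101 of the 198 UMIs. In the 8553 B cells with none, it was at 1.95 CPM (1.58 to 2.38). The marker UMIs that split these cells are also used by the rule for B cells, and the part of A-cell RNA in the B level was not tested. The log2 ratio was 6.25 with cells free of the other group's markers, 6.06 without barcodes marked as doublets, 6.31 with a stricter marker rule and 6.84 among cells of 4000 to 6000 UMIs. It was lowest, at 4.94, under a stricter cell filter.

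Slc1a4 (ENSMUSG00000020142) and Slc1a5 (ENSMUSG00000001918), of the same family, encode exchangers of small neutral amino acids, and the product of Slc1a5 is a main route of glutamine entry in many tumour cells. Slc1a4 was among the lowest of the 9 genes, at 12.5 CPM (11.4 to 13.6) in A cells and 8.77 CPM (7.99 to 9.61) in B cells. Slc1a5 was at 33.0 CPM (31.2 to 34.8) and 21.9 CPM (20.7 to 23.2). Both were somewhat higher in A cells, 1.42-fold (1.25 to 1.62) for Slc1a4 and 1.51-fold (1.39 to 1.63) for Slc1a5, and neither reached 2-fold.

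The heavy chain gene Slc3a2 (ENSMUSG00000010095) and the light chain genes that pair with it did not differ alike. Slc3a2 was at 86.7 CPM (83.9 to 89.7) in A cells and 75.3 CPM (73.0 to 77.7) in B cells, 1.15-fold higher in A cells (1.10 to 1.21). Slc7a5 (ENSMUSG00000040010), the light chain for leucine and other large neutral amino acids, was at 37.8 CPM (36.0 to 39.8) and 31.9 CPM (30.4 to 33.5). That is 1.19-fold higher in A cells (1.11 to 1.27). On the log2 scale the ratio of Slc3a2 was 0.20 (0.14 to 0.27), against a median of 0.11 over all features with at least 50 CPM in either group. Slc7a5, which does not reach 50 CPM, had 0.25 (0.14 to 0.35), against a median of 0.17 over features with at least 10 CPM.

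Slc7a11 (ENSMUSG00000027737), the light chain that takes up cystine in exchange for glutamate and so feeds glutathione synthesis, differed more. It had 1129 UMIs in A cells, or 28.0 CPM (26.4 to 29.7), and 500 UMIs in B cells, or 9.47 CPM (8.66 to 10.3). It was 2.96-fold higher in A cells (2.66 to 3.29). After thinning, 7.47% of A cells (6.88 to 8.09%) and 2.54% of B cells (2.22 to 2.89%) had a Slc7a11 UMI. Without thinning the shares were 11.6% and 4.79%.

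Slc7a1 (ENSMUSG00000041313) encodes a uniporter for arginine and lysine that needs no heavy chain. It had 1808 UMIs in A cells, or 44.9 CPM (42.9 to 47.0), and 5624 UMIs in B cells, or 107 CPM (104 to 109). It was 2.37-fold higher in B cells (2.251 to 2.504). A Slc7a1 UMI was seen in 12.7% of thinned A cells and 26.8% of thinned B cells, and without thinning in 19.8% and 44.8%.

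Slc38a1 (ENSMUSG00000023169) and Slc38a2 (ENSMUSG00000022462) encode related sodium-coupled carriers of small neutral amino acids and are neighbours on chromosome 15 in the RefSeq gene table. Slc38a2 was the most abundant of the 9 genes in both groups, at 188 CPM (184 to 192) in A cells and 228 CPM (224 to 232) in B cells. It was 1.21-fold higher in B cells (1.18 to 1.25). Slc38a1 was much lower, with 163 UMIs in A cells, or 4.05 CPM (3.45 to 4.72), and 898 UMIs in B cells, or 17.0 CPM (15.9 to 18.2). That is 4.204-fold higher in B cells (3.554 to 4.999), so the more abundant neighbour differed less. Slc38a1 was the lowest of the 9 genes in A cells. After thinning, 1.15% of A cells and 4.88% of B cells had a Slc38a1 UMI, and without thinning 2.06% and 9.50%.

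In A cells the order from high to low was Slc38a2, Slc1a3, Slc3a2, Slc7a1, Slc7a5, Slc1a5, Slc7a11, Slc1a4 and Slc38a1, and no neighbours in it had overlapping counting intervals. In B cells it was Slc38a2, Slc7a1, Slc3a2, Slc7a5, Slc1a5, Slc38a1, Slc7a11, Slc1a4 and Slc1a3. There only Slc7a11 and Slc1a4, at 9.47 and 8.77 CPM, overlapped. The chemistry counts the 3′ end of each RNA, so a level here does not grow with transcript length, though genes can differ in how well their ends are captured.

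The shares of features called above are of 8800 with at least 10 CPM in either group and of 3908 with at least 50 CPM. Each transporter called passed its minimum through the higher group alone, Slc1a3 and Slc7a1 at 50 CPM and Slc1a3, Slc7a11 and Slc38a1 at 10 CPM, except Slc7a1 at 10 CPM, which passed in both groups. At 1.5-fold and 10 CPM, 3 of the 9 were higher in A cells, Slc1a5 being added, as were 23.7% of features, and 2 in B cells, as were 12.8%. With only 9 genes, these counts do not set the transporters apart from other features. The 9 log2 ratios had a median of 0.25, against 0.17 over the 8800 features.

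**Figure D2:**
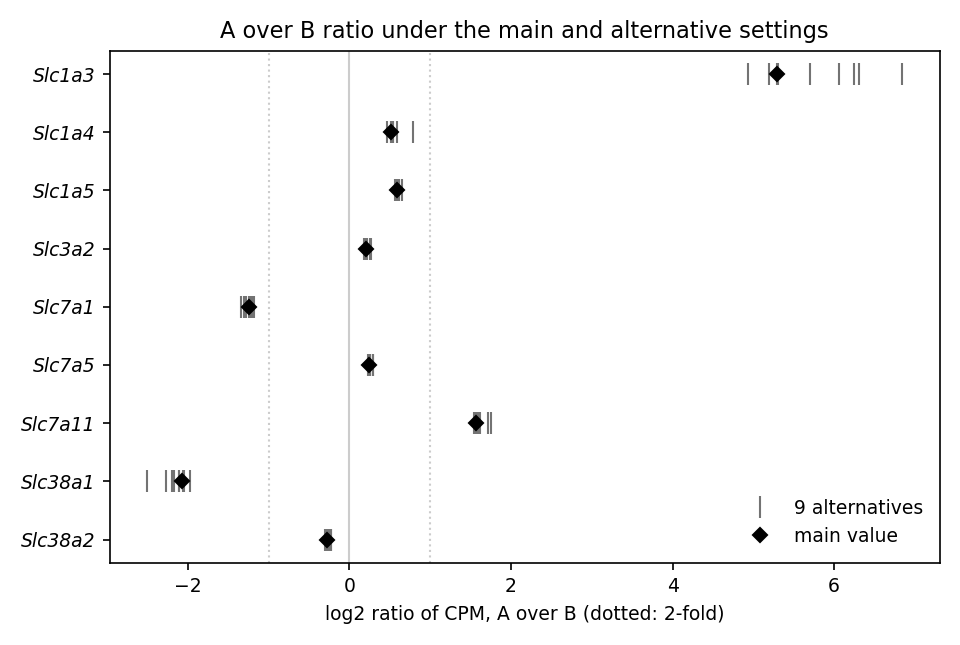
Log2 ratio of CPM, A over B, for each transporter gene under the main setting (diamond) and 9 alternatives (grey ticks), with dotted lines at 2-fold. No gene changed sign, and Slc1a3 ranged from 4.94 to 6.84 while Slc7a5 stayed between 0.23 and 0.30.

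Most other amino acid transporters were low in both groups. Of 35 further transporter genes listed, 2 had at least 50 CPM in either group and 0 of these differed 2-fold. Slc6a6, the taurine transporter, had 182 CPM in A cells and 168 CPM in B cells. Slc7a6, a light chain for cationic and neutral amino acids, had 34.4 and 60.0 CPM. Slc38a10, an SLC38 relative, had 23.8 and 28.9 CPM, and these 3 had the most UMIs of the list. At the 10 CPM minimum, 8 of the 35 were measured, 2 were 2-fold higher in A cells and 0 in B cells, against 10.3% and 7.26% of features. Those 2, named after their values were seen, were Slc6a15, a carrier of branched-chain amino acids and proline, at 13.0 and 1.42 CPM, and Slc16a10, a carrier of aromatic amino acids, at 21.0 and 9.40 CPM. Slc6a14, Slc7a10, Slc36a2, Slc38a5, Slc38a11 and Slc43a3 had 0 UMIs in both groups.

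Of the 27 genes of the ATF4 and amino acid response list, 10 passed 50 CPM, and 2 of these were at least 2-fold higher in A cells and 0 in B cells, against 7.6% and 6.68% of all features. Their median log2 ratio was 0.14, against 0.11 over all features. Atf4 itself had 89.2 CPM in A cells and 105 CPM in B cells. The 2 genes were Stc2, a secreted glycoprotein, at 101 and 13.1 CPM, and Nupr1, a small stress-induced chromatin protein, at 185 and 59.1 CPM. At the 10 CPM minimum, 4 of 19 were 2-fold higher in A cells and 0 in B cells, against 10.3% and 7.26% of features. This adds Cth, the enzyme that makes cysteine from cystathionine, at 41.9 and 14.7 CPM, and Eif2ak4, the kinase that senses uncharged tRNA, at 32.7 and 14.7 CPM. Besides Nupr1, the genes with most UMIs were Phgdh, the first enzyme of serine synthesis, at 594 and 665 CPM, and Eif4ebp1, a repressor of translation, at 186 and 172 CPM. Of 20 cytosolic aminoacyl-tRNA synthetase genes, 14 passed 50 CPM and 0 differed 2-fold in either direction. The 3 with most UMIs were Eprs at 366 and 320 CPM, Sars at 221 and 193 CPM, and Nars at 173 and 201 CPM.

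Of 21 NRF2 and glutathione genes, 14 passed 50 CPM, and 1 of these was at least 2-fold higher in A cells and 0 in B cells, against 7.6% and 6.68% of all features. The share in A cells is near that of all features, and the median log2 ratio was 0.13. That gene was Gclc, the catalytic subunit of the first enzyme of glutathione synthesis, at 112 CPM in A cells and 24.8 CPM in B cells. Its regulatory subunit gene Gclm had 243 and 263 CPM. The genes with most UMIs were Prdx1, a peroxiredoxin, at 1272 and 1119 CPM, Gpx4, the peroxidase of lipid peroxides, at 658 and 1049 CPM, and Txn1, thioredoxin, at 815 and 745 CPM.

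Of 13 glutamine and glutamate enzyme genes, 7 passed 50 CPM, and 1 of these was at least 2-fold higher in A cells and 0 in B cells, against 7.6% and 6.68% of all features. At 10 CPM it was 1 of 11 in each direction, against 10.3% and 7.26%. The gene higher in A cells was Oat, ornithine aminotransferase, at 83.0 and 38.5 CPM. Glud1, glutamate dehydrogenase, had 247 and 235 CPM, and Got2, the mitochondrial aspartate aminotransferase, had 238 and 132 CPM. Glul, glutamine synthetase, was the 1 higher in B cells at 10 CPM and was chosen after its values were seen. It had 8.24 CPM in A cells and 35.2 CPM in B cells. Of 25 genes of amino acid sensing by mTORC1, 9 passed 50 CPM and 0 differed 2-fold. At 10 CPM, 1 of 19 was higher in A cells and 0 in B cells, against 10.3% and 7.26% of features. That gene, named after its values were seen, was Sesn1, at 17.85 and 8.89 CPM. Lamtor2, Lamtor5 and Lamtor4, subunits of the complex that holds the sensor on lysosomes, had the most UMIs. Their levels were 213.5 and 175 CPM, 181 and 150 CPM, and 158 and 162 CPM.

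**Figure D3:**
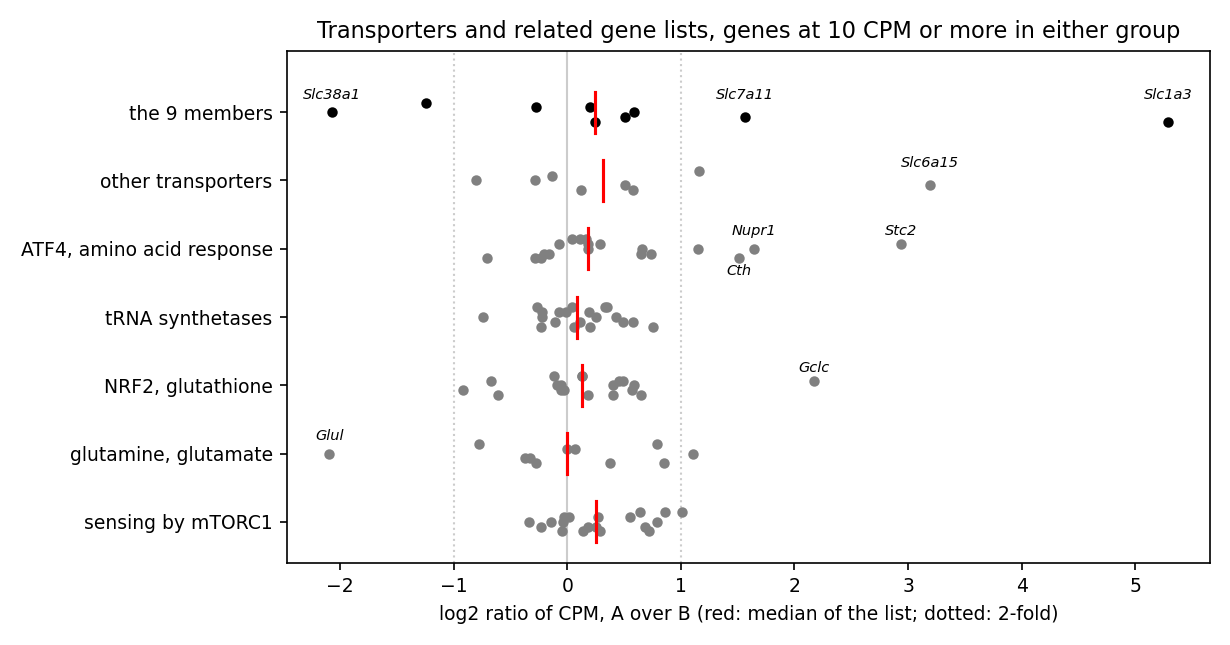
Log2 ratio of CPM, A over B, for the 9 transporters and for the genes of 6 related lists with at least 10 CPM in either group (points), with the median of each list in red and dotted lines at 2-fold. The list medians lie between 0.0014 and 0.31, and Slc1a3 at 5.29 is the highest point.

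Between expression states inside A or B cells, no transporter that reached 10 CPM differed 2-fold. Among A cells, 1142 had mainly UMIs of S100g, Epcam and Tm4sf20, and 2478 had mainly UMIs of Tnc, Acta2 and Ptchd4. Slc7a5 was at 26.1 CPM (log2 ratio -0.61, interval -0.88 to -0.34) in the former and 39.7 CPM in the latter. Its heavy chain partner Slc3a2 was at 68.4 and 91.5 CPM, and Slc1a3 at 123 and 154 CPM. Slc1a4 went the other way, with 16.1 and 10.8 CPM. Slc7a11, at 29.8 and 29.2 CPM, and Slc38a2, at 195 and 192 CPM, were even. Of 8 transporters with at least 10 CPM in either state, 0 were 2-fold higher in either, against 3.57% of all features in the S100g state and 0.873% in the Tnc state.

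Among B cells, 541 had mainly UMIs of Krt14 and Sprr1a, and 4714 had mainly UMIs of Areg, Btc and Cftr. Slc7a11 was higher in the Krt14 state, at 15.4 against 9.08 CPM (log2 ratio 0.76, interval 0.30 to 1.19). Slc38a2 was lower in it, at 191 against 235 CPM, as was Slc7a1, at 98.5 against 112 CPM. Slc3a2 had 81.4 and 74.9 CPM and Slc7a5 had 31.3 and 34.0 CPM, with intervals of the ratio that include 0. Of 7 transporters measured, 0 differed 2-fold, against 1.66% of features higher in the Krt14 state and 0.316% in the Areg state.

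Across the cell cycle, Slc7a11 was highest in the cells with fewest cell-cycle UMIs, and Slc7a5 was higher in mitosis than in those cells. In each group, cells thinned to 3000 UMIs were ranked by 15 DNA replication genes and by 15 mitosis genes. The highest 10% by each were taken, and the 10% lowest in their sum, with ties in the order of the barcodes. These were 740 A cells and 882 B cells per set, and a cell could be in more than 1 set. In A cells Slc7a11 was at 24.5 CPM (19.7 to 30.3) in the replication set, 26.3 CPM (21.6 to 31.7) in the mitosis set and 41.9 CPM (35.3 to 49.4) in the lowest set. In B cells it was at 9.29, 5.98 and 24.6 CPM. It was thus highest in both groups in the cells with fewest cell-cycle UMIs. The mitosis set was lower than the lowest set by 1.60-fold in A cells and 4.11-fold in B cells.

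In A cells Slc7a5 had 32.1 CPM (26.5 to 38.6) in the replication set, 46.7 CPM (40.4 to 53.8) in the mitosis set and 22.7 CPM (17.9 to 28.4) in the lowest set. In B cells it had 32.0 CPM (27.2 to 37.5), 37.5 CPM (32.8 to 42.75) and 28.6 CPM (24.0 to 33.8). There the log2 ratio of mitosis over the lowest set was 0.39 (0.08 to 0.71), and that of replication over the lowest set was 0.16 (-0.18 to 0.51), which includes 0. Slc7a1 followed the cycle in A cells, with 53.6, 46.2 and 31.9 CPM, but was near level in B cells, with 115, 103 and 108 CPM. In A cells Slc1a3 was at 169 CPM in mitosis and 122 CPM in the lowest set, and Slc3a2 at 92.3 and 69.3 CPM. In B cells the intervals of the ratio of mitosis over the lowest set include 0 for Slc1a3 and Slc3a2. Slc38a2 was slightly higher in the lowest set of A cells, at 216 against 183 CPM in mitosis, and near level in B cells. The difference between A and B cells in these patterns was not tested.

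Read against all features with at least 10 CPM, few transporters passed 2-fold between these sets. Comparing mitosis with the lowest set in A cells, 1 of 8 was higher in mitosis (Slc7a5, 2.06-fold), as were 4.31% of features, and 0 of 8 were higher in the lowest set, as were 4.26%. In B cells 0 of 8 were higher in mitosis, where 3.17% of features were, and 1 of 8, Slc7a11, was higher in the lowest set, where 1.5% were. There Slc7a11 passed the minimum through the lowest set alone, being at 5.98 CPM in mitosis. Comparing replication with the lowest set, 0 of 8 differed in A cells (4.76% and 4.37% of features). In B cells 0 of 8 were higher in replication (3.32%) and again only Slc7a11 was higher in the lowest set (0.856%). At 9.29 CPM in replication, Slc7a11 again passed the minimum through the lowest set alone. The sets also differed in depth. The median was 5318 UMIs in mitosis and 3988 in the lowest set of A cells, and 6484 and 4824 in B cells. The part of depth in these values was not tested.

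**Figure D4:**
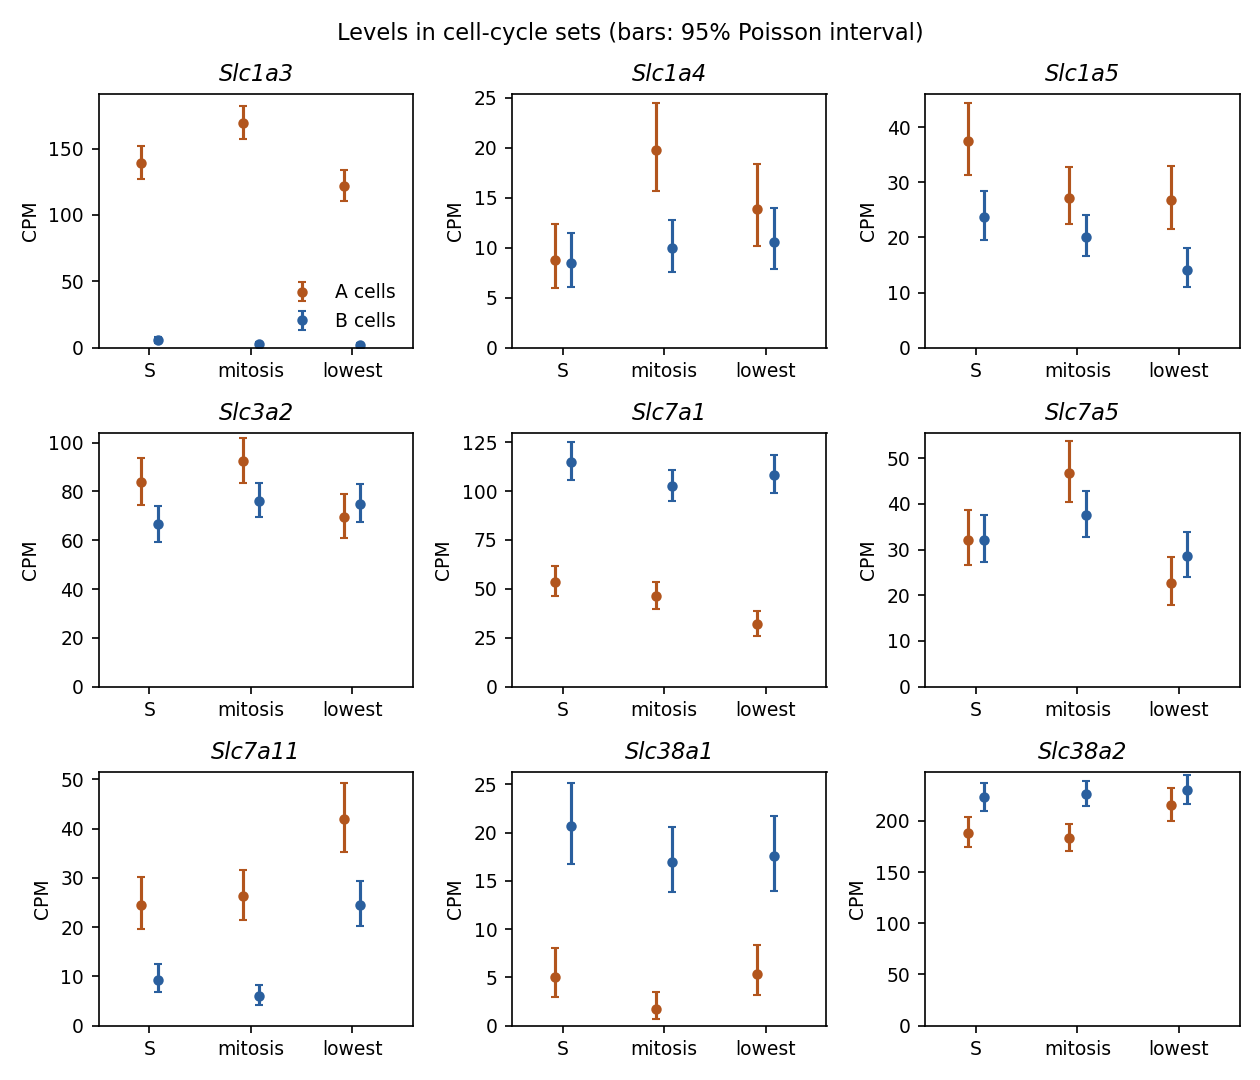
CPM of each transporter (1 panel per gene, axes from 0) in A cells (brown) and B cells (blue) of the replication set (S), the mitosis set and the set lowest in cell-cycle UMIs, with 95% Poisson intervals. Slc7a11 is highest in the lowest set of both groups, at 41.9 and 24.6 CPM, and Slc7a5 is highest in mitosis, at 46.7 and 37.5 CPM.

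In single cells few transporters were seen together, at a depth that gives few UMIs of each. Even Slc38a2, the most abundant, had a mean of 0.56 UMIs per thinned A cell and 0.66 per thinned B cell. At 3000 UMIs, 79.8% of 7406 A cells and 76.3% of 8827 B cells had a UMI of at least 1 of the 9 genes. The median cell had a UMI of 1 of them and the highest count was 6. Of A cells 3.36%, and of B cells 1.19%, had UMIs of 4 or more. The variance of the thinned counts divided by their mean is 1 for pure counting noise. It was 1.20 for Slc1a3 in A cells and 1.17 for Slc7a11, against a median of 1.03 and a 90th percentile of 1.11 over 3034 features of 50 to 300 CPM. In B cells it was 1.31 for Slc1a3 and 1.14 for Slc7a11, against a median of 1.03 and a 90th percentile of 1.09. Slc7a11 in both groups, and Slc1a3 in B cells, lie under that range of CPM.

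Over the 36 pairs of transporters, the median Pearson correlation of log counts across cells was 0.0112 in A cells and 0.0026 in B cells. The median over pairs of a transporter with any other feature of at least 50 CPM was near 0 in both groups, with a 99th percentile of 0.0343 and 0.0284. The cells share 1 library and were thinned to 1 depth. Slc3a2 with Slc7a11, the heavy chain and the cystine light chain, had 0.0427 in A cells and 0.0443 in B cells, the highest pair at this setting. Another pair was highest under 6 of 6 alternatives in A cells and 3 of 6 in B cells, so no pair is singled out. Both were seen in 152 A cells, where the product of their shares gives 121, and in 62 B cells, where it gives 44.1. Slc3a2 with Slc7a5 had 0.0414 in A cells and 0.0121 in B cells.

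In A cells 4 pairs lay above that 99th percentile: Slc3a2 with Slc7a11, Slc7a5 and Slc7a1, and Slc7a1 with Slc7a11. In B cells 1 did, Slc3a2 with Slc7a11. All are weak correlations of sparse counts, and they moved between the settings. Every alternative except the rank correlation also drew the thinned UMIs anew. The part of the setting and that of the new draw cannot be told apart here. Under 5 of 6 alternatives Slc3a2 with Slc7a11 ran from 0.0248 to 0.0570 in A cells and from 0.0199 to 0.0457 in B cells. Under the sixth, the stricter marker rule, Slc3a2 with Slc7a11 had 0.0020 in A cells and 0.0037 in B cells, and Slc3a2 with Slc7a5 had 0.0230 and 0.0066. Slc3a2 with Slc7a1 in A cells fell from 0.0386 to between 0.0017 and 0.0127 under 5 of 6 alternatives. The highest pair of A cells was Slc7a5 with Slc7a11 under 4 alternatives, at 0.0301 to 0.1003, and Slc3a2 with Slc7a5 under the other 2, at 0.0440 and 0.0575.

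**Figure D5:**
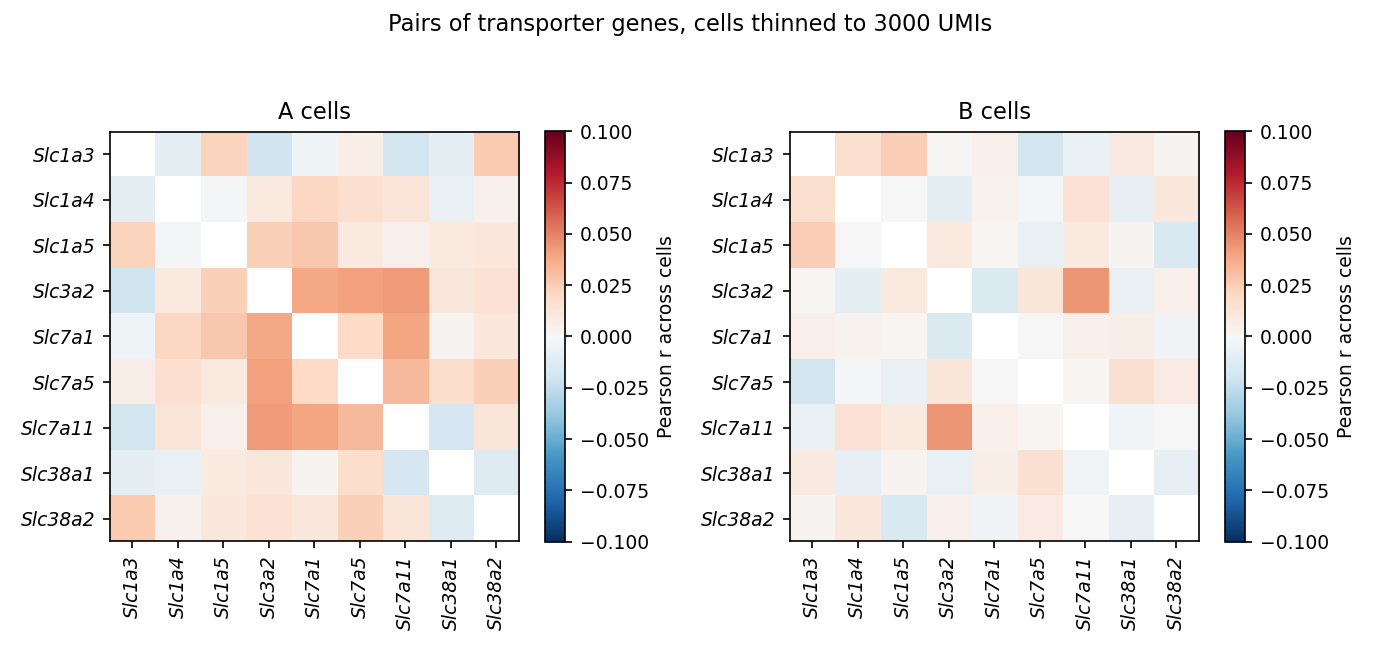
Pearson correlation across cells of log counts for each pair of transporters in A cells (left) and B cells (right), each cell thinned to 3000 UMIs, on a scale from -0.1 (blue) to 0.1 (red). All 36 pairs lie between -0.0198 and 0.0427 in A cells and between -0.0183 and 0.0443 in B cells.

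The genes most like each transporter, over cells of 1 group, were named where the transporter had at least 50 CPM in that group. In A cells the closest to Slc1a3 were Dlg1 (0.0647), Prc1 (0.0640) and Top2a (0.0614), the last 2 being genes of mitosis. For Slc3a2 they were Psph (0.0608), Tomm20 (0.0562) and Eif4ebp1 (0.0543), and for Slc38a2 Ccn1 (0.0778), Malat1 (0.0760) and Oxr1 (0.0620). In B cells they were Ube2c (0.0340), Glo1 (0.0337) and Cope (0.0335) for Slc3a2. For Slc7a1 they were Eif3b (0.0454), Ube2k (0.0444) and Slc25a24 (0.0415), and for Slc38a2 Btg1 (0.0406), H1f1 (0.0381) and Mark3 (0.0369). All of these are weak, and none of the genes named was shared between the groups.

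Slc7a11 had less than 50 CPM and was looked at after its values were seen. Its closest gene was Fth1, the ferritin heavy chain, in both groups, at 0.111 in A cells and 0.0923 in B cells. Under the alternative settings this value ran from 0.0844 to 0.196 in A cells and from 0.0629 to 0.132 in B cells. Sqstm1, an autophagy receptor, was also among the closest 3 in both groups, at 0.0897 and 0.0615. In 553 thinned A cells with a Slc7a11 UMI, Fth1 was at 3558 CPM (3467 to 3650), against 2757 CPM in 6853 cells without one. In B cells it was at 6022 CPM (5838 to 6211) in 224 cells and 4390 CPM in 8603.

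Of the genes read in the same split, chosen after such values were seen, some were higher beside Slc7a11 and some were not. Phgdh had 637 CPM (599 to 677) in A cells with a Slc7a11 UMI and 592 CPM (581 to 602) in the others. In B cells Phgdh had 638 and 666 CPM, so it was not higher there. Slc7a5 had 49.4 and 35.75 CPM in A cells and 32.7 and 31.35 CPM in B cells. Atf4 had 148 CPM (130 to 167) in such A cells and 87.4 CPM (83.4 to 91.5) in the others. In B cells it had 129.5 CPM (104 to 160) and 102 CPM (98.4 to 106), with overlapping intervals. Psph, the last enzyme of serine synthesis, had 88.0 and 51.9 CPM in A cells and 103 and 44.8 CPM in B cells. Slc3a2 had 114 and 84.2 CPM in A cells and 120 and 73.6 CPM in B cells. Gclm had 292.9 CPM (267.5 to 320.2) and 235.8 CPM in A cells, and 327.4 CPM (285.5 to 373.6) and 266.6 CPM in B cells. Eif4ebp1 had 269 and 180 CPM in A cells and 243 and 168 CPM in B cells. Sqstm1 had 274 and 164 CPM in A cells and 199 and 102 CPM in B cells. Ftl1 had 8031 and 6938 CPM in A cells and 3128 and 2468 CPM in B cells. Slc38a2 was close to even, with 200 and 187 CPM in A cells and 226 and 220 CPM in B cells. The median mitochondrial share was 2.997% and 3.184% in A cells and 1.95% and 1.89% in B cells, so the cells with and without Slc7a11 differed little in it.

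The promoter of Slc7a11 is shown, chosen after the values above were seen, and no link between it and those values was tested. The stretch is the 120 bases before the RefSeq start site, on the minus strand of chr3:50443614-50443733 in build GRCm38.p6, which is not the build of the counts (GRCm39). Capitals mark the core of the amino acid response element that ATF4 binds with a partner, TGATGNAA, searched on both strands.
Slc7a11 promoter: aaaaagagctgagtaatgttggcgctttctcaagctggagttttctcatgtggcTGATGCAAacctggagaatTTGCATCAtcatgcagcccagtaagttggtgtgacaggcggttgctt
The core stands there 2 times, as TGATGCAA on the strand of the gene from base -66 to -59 and as TTGCATCA, on the other strand, from base -47 to -40, the start site being base 0. A window of 250 bases before to 50 bases after the start was listed for 6 of the 9 genes. Of all 32851 such windows in the table, 3.97% held the core. Besides Slc7a11 it was found in the Slc1a4 window, at the start site itself. The core of the antioxidant response element that NRF2 binds, TGACNNNGC, was in 12.4% of all windows and in those of Slc7a1 and Slc38a2. A match describes letters only and says nothing of binding in these cells.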

How the data were processed

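Gene expression was measured in 1 single-cell library. The authors deposited whole-number counts of UMIs per gene and barcode, without normalization, written by Cell Ranger 8.0.1 per the file headers. The submitters' processing notes name build GRCm39. The annotation and any filter on barcodes are not given in the sources used here. From these counts, summed UMIs per group were scaled to CPM. Sums have exact Poisson intervals, and ratios and shares have exact Clopper-Pearson intervals. For shares and correlations, cells were thinned to 3000 UMIs, which left out 410 A cells and 109 B cells. Doublets were kept in the main values. The marker rule drops barcodes with many markers of both groups, and Scrublet in scanpy 1.11.5, at an expected rate of 0.08, marked 778 barcodes (3.64%) for an alternative. Pairs of like cells are not found by either.

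The members, the A and B marker genes, the lists and the states were chosen with earlier results of these data known. Named genes were the 9 members, the 3 most correlated features per member with at least 50 CPM, and of each list the 3 genes with most UMIs and those past 2-fold. A gene that this rule names is not reported here. The steps were tested on simulated data. RefSeq tables of GRCm38.p6 gave promoters and chromosome names. Python 3.11.15 was used.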

Additional observations from a re-analysis of the deposited data

Results flagged for a closer look

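The 4609 barcodes that passed the cell filter but fell in neither group took no part in the comparison, and all 9 transporters were detected there above a floor of 3 UMIs, or 0.133 CPM. That floor is low, so passing it shows little. Of these barcodes, 464 had markers of both groups, with a median of 8490 UMIs, and 4145 had few markers, with a median of 4166. Scrublet marked 67.9% of the former and 2.63% of the latter.

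For 8 of the genes the level lay between those of A and B cells. Slc1a3 was at 83.65 CPM (79.9 to 87.5) and Slc7a1 at 66.3 CPM. Slc3a2 was at 80.2 CPM and Slc38a2 at 203.8 CPM. The lower genes were Slc1a5 at 29.0 CPM, Slc7a11 at 25.6 CPM, Slc1a4 at 11.7 CPM and Slc38a1 at 9.72 CPM. Slc7a5, at 39.4 CPM (36.8 to 42.1), was above its level in both groups, with an interval that reaches the 37.8 CPM of A cells.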

How the results depend on the processing

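With a minimum of 10 CPM in place of 50, the members at least 2-fold higher were 2 in A cells and 2 in B cells, in place of 1 and 1. This minimum admits all 9 genes instead of 4. The other settings left both counts at 1. Of 81 log2 ratios under 9 alternatives, 67 stayed within their counting interval, 14 moved and 0 changed sign. Of the 14, 6 belonged to Slc1a3 and 3 to Slc38a2. Restricting cells to 1.5 to 4% mitochondrial UMIs gave 5.19 for Slc1a3, -1.18 for Slc7a1, 1.55 for Slc7a11 and -2.17 for Slc38a1. The alternative without cells holding markers of the other group was chosen after seeing the data. The median pair correlation ran from 0.0058 to 0.0139 in A cells and from 0.0025 to 0.0067 in B cells, so both medians moved by a large part of their own size. Every alternative for it except the rank correlation also drew the thinned UMIs anew, so these moves include the draw. No paired analysis was possible because there is 1 library, and leaving out a replicate was not possible for the same reason.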

Other observations

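By the chromosome names of the RefSeq table, features with at least 50 CPM on chromosome 19, which holds Slc3a2, had a median log2 ratio of -0.58, A over B, over 138 features, whereas Slc3a2 had 0.20. On chromosome 7, which holds Slc1a5, the median was 0.53 over 254 features and Slc1a5 had 0.59. Chromosome 15 holds Slc1a3, Slc38a1 and Slc38a2, and its median was -0.10 over 169 features, while the 3 genes had 5.29, -2.07 and -0.28. Chromosome 5, with Slc7a1 at -1.25, had 0.14 over 253 features, and chromosome 3, with Slc7a11 at 1.56, had -0.017 over 269. DNA was not measured.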
